A study of Mus musculus with 4 samples.

Results

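The genes described here are 10 members of the NF-kB system, the 5 subunits of the transcription factor (Nfkb1, Nfkb2, Rela, Relb and Rel) and 5 genes that NF-kB is known to induce and that in most cases restrain it (Nfkbia, Nfkbie, Bcl3, Tnfaip3 and Cd69). They were chosen by name and found on the array through the RefSeq accession of each probe. All 10 had a probe, 12 probes in all, among 20972 genes with a symbol and 55681 probes on the array. The data are 4 Agilent mouse arrays, each comparing RNA labelled with 2 dyes, from lines that grew out as immortal, transformed clones after fetal liver was transduced with p185 BCR-ABL1, a fusion tyrosine kinase of acute lymphoblastic leukaemia. The R/R lines are homozygous for knock-in Cdk4 R24C and Cdk6 R31C, point mutations known to free these cell cycle kinases from INK4 inhibitors, and were set against wild-type (WT) lines with the same fusion. The strain background was mixed C57BL/6J x CD-1 throughout, and the cultures were asynchronous. On 3 arrays an R/R clone labelled with Cy5 (clone 1, 2 or 3) was hybridised together with pooled WT RNA labelled with Cy3. The last array had the dyes turned, with pooled R/R RNA in Cy3 and the WT pool in Cy5, and what either pool held is not given in the labels. Each line is 1 clone, the clone identifiers of clones 1 and 2 start alike, and the WT side is 1 pool, so the control's own spread was not measured. Ratios are given as log2 of R/R over WT on every array, the dye-swapped one included.

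NF-kB proteins bind DNA as dimers. Nfkb1 and Nfkb2 encode the precursors p105 and p100, which are processed to p50 and p52, whereas Rela, Relb and Rel encode the subunits with a transactivation domain. In resting cells the dimers are held in the cytoplasm by IkB proteins until the IkB kinase marks these for destruction, and the freed dimers then induce the genes of their own inhibitors. Much of the control thus lies in protein location and turnover, which a transcript array does not measure. In the B lineage the pathway is engaged by the pre-B and B cell receptors, by the receptor for BAFF and by lymphotoxin, and it serves survival and maturation.

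The consensus kB site was searched on both strands in RefSeq promoters of build GRCm38.p6, each running from 250 bases before to 50 bases after the start, with overlapping matches counted as 1 site. It was present in 8.46% of 32851 promoters and in at least 1 promoter of 9.55% of 27025 genes. Of the 7 members with a promoter in the table, 6 held it, namely Nfkb2, Rel, Nfkbia, Nfkbie, Bcl3 and Tnfaip3. In the promoter of Rela these letters were not found, and Nfkb1, Relb and Cd69 were not in the table. The stretches below are the 150 bases before the start for 4 feedback genes or subunits, and for Bcl3 a stretch of 30 bases across the start, where its site lies. They are shown because these genes share the site, and their ratios are given further on. Each reads 5′ to 3′ on the strand of the gene, and capitals mark the kB match. The positions of the stretches are chr19:46304587-46304736 on the plus strand for Nfkb2, chr12:55492648-55492797 on the minus strand for Nfkbia and chr17:45555550-45555699 on the plus strand for Nfkbie. For Tnfaip3 the position is chr10:19015411-19015560 and for Bcl3 chr7:19822734-19822763, both on the minus strand.
Nfkb2: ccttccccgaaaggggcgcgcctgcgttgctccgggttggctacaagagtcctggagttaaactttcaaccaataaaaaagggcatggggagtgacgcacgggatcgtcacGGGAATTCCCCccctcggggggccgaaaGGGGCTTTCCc
Nfkbia: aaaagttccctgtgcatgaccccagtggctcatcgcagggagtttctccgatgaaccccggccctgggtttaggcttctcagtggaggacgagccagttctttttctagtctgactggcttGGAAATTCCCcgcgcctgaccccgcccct
Nfkbie: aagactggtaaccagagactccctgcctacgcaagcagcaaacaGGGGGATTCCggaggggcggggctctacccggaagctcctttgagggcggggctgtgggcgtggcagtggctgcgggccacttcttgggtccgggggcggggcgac
Tnfaip3: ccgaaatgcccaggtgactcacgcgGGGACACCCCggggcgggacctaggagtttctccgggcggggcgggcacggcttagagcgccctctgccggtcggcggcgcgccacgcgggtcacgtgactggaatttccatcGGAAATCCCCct
Bcl3: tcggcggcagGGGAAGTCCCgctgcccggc
The Nfkb2 promoter shown, 1 of 3 in the table, holds a site at -39 and another at -11, counted in bases from the start with the leftmost base of the site on the gene's strand. The Tnfaip3 promoter shown, 1 of 2, holds sites at -125 and -12, and the other Tnfaip3 promoter has none. The site of Nfkbia lies at -29 and that of Nfkbie at -106, and that of Bcl3 lies at 3, just past the start.

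Before the members' values, the cells were checked against markers. All 14 B-lineage markers, among them Cd79a, Pax5, Ebf1, Vpreb1 and Igll1, were well above background in the R/R and the WT channels, and none was called different. At an unadjusted p under 0.05 by limma, 3 were higher and 1 lower, where 7.5% and 8.38% of all genes were. Some spread widely over clones 1, 2 and 3, with log2 ratios of 1.31, -1.67 and 1.92 for Dntt, 0.05, -1.35 and 0.62 for Rag1 and 0.84, -1.36 and 0.33 for Rag2. The lack of a call therefore does not show equal levels in the clones. None of 6 hepatocyte markers, among them Alb and Afp, was well above background on at least 3 of 4 arrays in either channel. Of 10 myeloid markers 7 were measured, of 11 T and NK markers 6, of 7 mast cell and megakaryocyte markers 1 and of 6 fibroblast and endothelium markers 4, with none called. Between 42.8% and 53.4% of spots per channel lay well above background, no spot of a member was marked as an outlier, and all arrays lay on 1 slide. Between the clones, the median SD of a probe was 0.17 on the log2 scale over 26436 probes tested, and the number of arrays limits the precision.

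Of the 12 member probes, 11 were well above background in R/R or in WT on at least 3 of 4 arrays and entered the fit. Cd69 was lower in R/R cells, and 10 member probes did not pass the threshold (limma, Benjamini-Hochberg adjusted p under 0.05 over all 26436 probes). Over all probes tested, 0.586% were called in either direction and 0.401% lower in R/R, and the member count rests on a single gene. No member probe was higher, where 0.185% of all probes were, either after adjustment or at an unadjusted p under 0.05 by limma, and 2 were lower at an unadjusted p under 0.05, those of Cd69 and Bcl3. At that unadjusted threshold 7.82% of all probes tested were lower and 7.1% higher. The median fitted ratio of the 11 probes was -0.11, beside -0.01 over all probes tested. On all 4 arrays, 4 of the 11 probes had a ratio below 0, those of Cd69, Bcl3 and both probes of Relb, as did 15.5% of all probes tested.

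**Figure D1:**
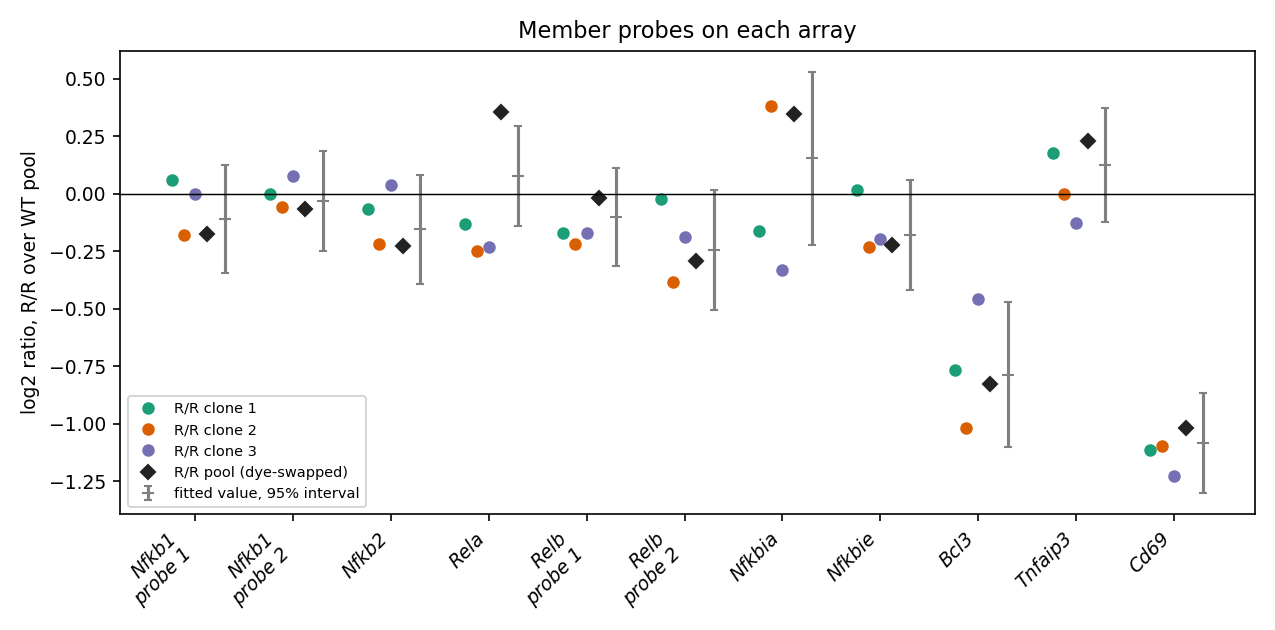
The vertical axis gives the log2 ratio of R/R over the WT pool for each of the 11 measured member probes. Circles are the 3 R/R clones, diamonds the dye-swapped R/R pool, and grey bars the fitted value with its 95% interval. Cd69 lies between -1.23 and -1.02 on every array and Bcl3 between -1.02 and -0.46, while the remaining probes lie between -0.38 and 0.38.

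Cd69 (gene ID 12515, GRCm38.p6 chromosome 6, 129267324 to 129275375) encodes a C-type lectin of the cell surface that appears early on activated lymphocytes, and its transcription is known to respond to NF-kB as well as to other signals. Its normalised intensity was 429, 425 and 414 in R/R clones 1, 2 and 3 and 452 in the R/R pool, against 929, 909, 971 and 918 for the WT pool on the same arrays. All 4 R/R values lay below all 4 WT values. The log2 ratios were -1.11, -1.10 and -1.23 in clones 1, 2 and 3 and -1.02 in the R/R pool. Cd69 was thus lower in each clone by a similar amount, and the clone mean was -1.15 ± 0.07 (SD, n = 3), a spread of 0.13 between the highest and lowest clone that 87.6% of all probes tested exceeded. The fitted ratio was -1.08 ± 0.09 (SE, limma adjusted p = 0.0194), or 2.12-fold higher in WT with a 95% interval of 1.82 to 2.47. The call was lost with the scanner software's ratios, at -1.14 (limma adjusted p = 0.114). It was also lost without clone 1, at -1.09 (limma adjusted p = 0.0502), and when arrays were only centred on their median, at -1.09 (adjusted p = 0.135). Of 8 erythroid marker genes 3 were measured, and 1 of them was lower together with Cd69, the beta-globin gene Hbb-bt at -1.84 ± 0.19 (limma adjusted p = 0.0358). Summed over all 8 genes, the markers had 3548 to 4524 intensity units in the R/R channels against 9632 to 10648 in the WT channels. Without Hbb-bt the other 7 summed to 1253 to 2007 units in R/R against 1423 to 1504 in WT, so the groups overlapped. Tfrc weighed most in that sum, at a mean log2 intensity of 10.0 in the WT channels against 6.4 for Gata1. Tfrc stood at 0.26 ± 0.18 (limma adjusted p = 0.547). Gata1, well above background in the WT channels alone, stood at -0.21 ± 0.09 and did not pass (limma adjusted p = 0.342). It was below WT on every array, at -0.24, -0.31 and -0.25 in clones 1, 2 and 3 and -0.15 in the R/R pool. The other 5, among them Klf1, Alas2, Epor and Hba-a1, were not well above background on at least 3 arrays in either channel. The part of Hbb-bt or of erythroid cells in the Cd69 result was not tested. In such bulk RNA, fewer cells of a type and less RNA per cell cannot be told apart.

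Bcl3 (gene ID 12051, chromosome 7, 19808462 to 19822824) encodes an IkB family protein that, unlike the cytoplasmic inhibitors, enters the nucleus and binds p50 and p52 homodimers. Its normalised intensity was 85.7, 62.7 and 108 in R/R clones 1, 2 and 3 and 86.1 in the R/R pool, against 146, 127, 149 and 153 for the WT pool on the same arrays. The R/R values again lay below all WT values, although closer to background than those of Cd69. Only 2 of 4 R/R channels, those of clones 1 and 3, were well above background, and all 4 WT channels were. The log2 ratios were -0.77, -1.02 and -0.46 in clones 1, 2 and 3 and -0.83 in the R/R pool. The clone mean was -0.75 ± 0.28 (SD, n = 3), and the fitted ratio was -0.79 ± 0.13 (SE), 1.72-fold higher in WT with a 95% interval of 1.39 to 2.15. This difference did not pass (limma adjusted p = 0.0845), and it did pass without clone 3 at -0.86 (limma adjusted p = 0.0348) and without a dye term at -0.77 (adjusted p = 0.0088). The size moved with the treatment of background, to -1.18 with a normexp offset of 16 and to -2.01 with the scanner software's ratios, neither of which passed.

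**Figure D2:**
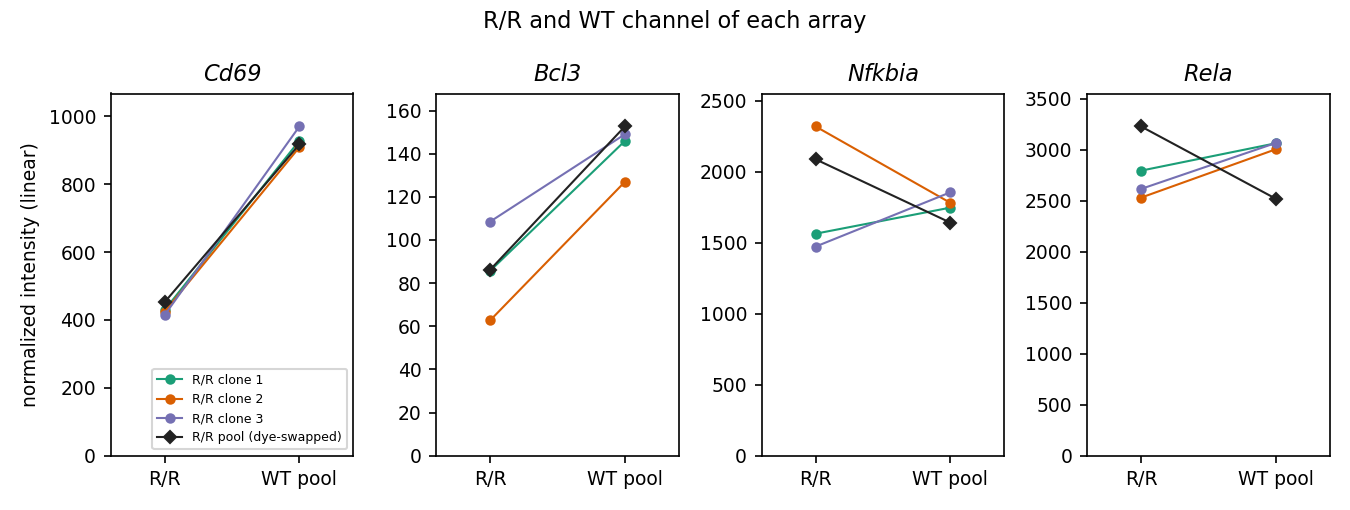
Each panel gives the normalised intensity of 1 probe on a linear axis, with the R/R channel at the left and the WT pool channel of the same array at the right, joined by a line for each array. All lines rise to the right for Cd69 and Bcl3, whereas those of Nfkbia and Rela cross.

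Nfkbia (gene ID 18035, chromosome 12, 55489409 to 55492647) encodes IkB alpha, the main inhibitor that NF-kB induces and that returns RelA dimers to the cytoplasm. Its log2 ratios were -0.16, 0.38 and -0.33 in clones 1, 2 and 3 and 0.35 in the R/R pool, so clone 2 and the pool were above the WT pool and clones 1 and 3 below it. The range over the clones was 0.71, with 10.6% of all probes tested showing a wider one, and the fitted ratio was 0.15 ± 0.15 (limma adjusted p = 0.669, 95% interval -0.22 to 0.53). In channel intensities the SD over the 3 clones was 0.36 on the log2 scale, and that of the WT pool in Cy3 on the same arrays, which repeats 1 RNA and holds technical spread only, was 0.04. Tnfaip3 encodes A20, a ubiquitin-editing enzyme that shuts off signalling upstream of the IkB kinase. Its log2 ratios were 0.18, -0.0015 and -0.13 in clones 1, 2 and 3 and 0.23 in the R/R pool. They took both signs, and the fitted ratio was 0.12 ± 0.10 (limma adjusted p = 0.593, 95% interval -0.12 to 0.37). Nfkbie encodes IkB epsilon, an inhibitor that acts on RelA and c-Rel dimers. Its log2 ratios were 0.02, -0.23 and -0.20 in clones 1, 2 and 3 and -0.22 in the R/R pool, with a fitted ratio of -0.18 ± 0.10 (limma adjusted p = 0.444, 95% interval -0.42 to 0.06). Of the induced genes, Cd69 was lower and Bcl3 was below WT on each array without passing. Nfkbie was below WT on 3 arrays, and Nfkbia and Tnfaip3 were each below it on 2. The 95% intervals of Nfkbie, Nfkbia and Tnfaip3 all held 0, so whether the induced genes shared a direction was not resolved.

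Among the subunits, no probe passed. Nfkb1, the p105 and p50 gene, had 2 probes, the dimmer of them with 2 spots per array. The brighter probe gave log2 ratios of 0.06, -0.18 and -0.00047 in clones 1, 2 and 3 and -0.17 in the R/R pool, and the dimmer one 0.0015, -0.06, 0.08 and -0.07 in the same order. Neither probe kept 1 sign over the clones, and the fitted ratios were -0.11 ± 0.10 (limma adjusted p = 0.630) and -0.03 ± 0.09 (adjusted p = 0.896). For the brighter probe the 95% interval ran from 0.79-fold to 1.09-fold of WT. Nfkb2, the p100 and p52 gene and itself an NF-kB target, had log2 ratios of -0.07, -0.22 and 0.04 in clones 1, 2 and 3 and -0.23 in the R/R pool. The fitted ratio was -0.15 ± 0.10 (limma adjusted p = 0.498), with a 95% interval of 0.76-fold to 1.06-fold of WT.

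Relb encodes the subunit that pairs mainly with p52 in the non-canonical pathway. Its brighter probe gave log2 ratios of -0.17, -0.22 and -0.17 in clones 1, 2 and 3 and -0.02 in the R/R pool, and its second probe gave -0.02, -0.38, -0.19 and -0.29 in the same order. Both probes were below 0 on every array, by small amounts. The fitted ratios were -0.10 ± 0.09 (limma adjusted p = 0.613) and -0.24 ± 0.11 (adjusted p = 0.356), and with the second probe the 95% interval ran from 0.71-fold to 1.01-fold of WT. Over the clones the second probe spread over 0.36 and the first over 0.05.

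Rela (gene ID 19697, chromosome 19, 5637442 to 5648134) encodes p65, the subunit of the most common dimer. Its log2 ratios were -0.13, -0.25 and -0.23 in clones 1, 2 and 3, and 0.36 in the R/R pool. The clones, with R/R in Cy5, were all below WT, and the pool, with R/R in Cy3, was above it. The normalised R/R intensities were 2797, 2532 and 2617 in the clones (Cy5) and 3231 in the pool (Cy3), against WT intensities of 3065, 3007 and 3068 in Cy3 on the clone arrays and 2521 in Cy5 on the pool array. Whichever genotype was labelled with Cy3 thus read higher. The gap between the pool and the clone mean was 0.56, against a median absolute gap of 0.14 over all probes, and 2.25% of all probes had a larger one. The dye term was -0.28 ± 0.09 (limma, unadjusted p = 0.0198). No probe of the array had a called dye term after adjustment by limma, while 674 had an unadjusted p under 0.05. With the dye term the fitted genotype ratio of Rela was 0.08 ± 0.09 (limma adjusted p = 0.714). On the clone arrays alone the ratio was -0.20 and without the dye term -0.06, so its sign depended on how the dye was treated. The dye and the step from clones to the pool change together on that array and cannot be told apart.

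**Figure D3:**
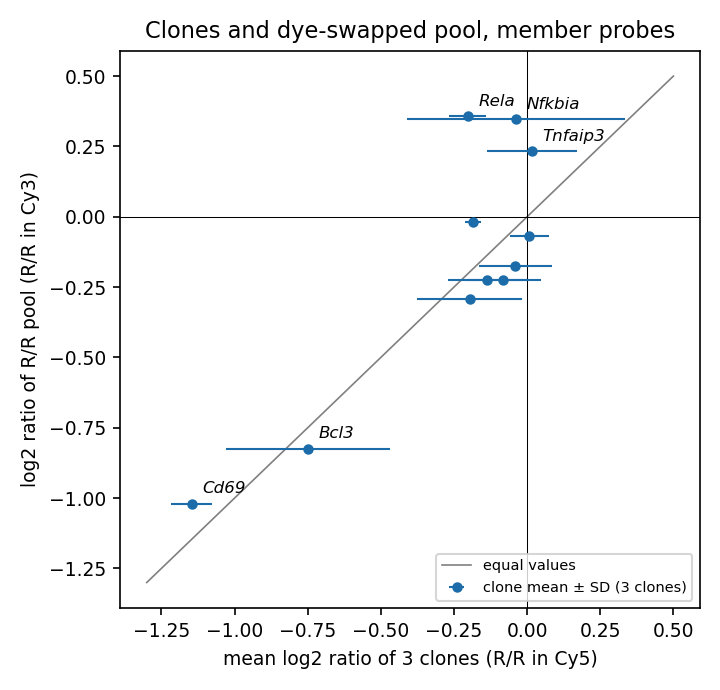
The horizontal axis gives the mean log2 ratio of the 3 R/R clones, with bars of ± 1 SD, and the vertical axis the log2 ratio of the dye-swapped R/R pool, for the 11 measured member probes. Cd69 and Bcl3 lie near the line of equal values, and Rela and Nfkbia lie above it, with Rela at -0.20 in the clones and 0.36 in the pool.

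Rel encodes c-Rel, the subunit most closely tied to lymphocytes. Its single probe stayed at background level in all R/R and WT channels. The spot brightness in R/R was 61, 57 and 51 in clones 1, 2 and 3 (Cy5) and 31 in the pool (Cy3), over local backgrounds of 46.5, 48.5, 45 and 18. For the WT pool it was 29, 32 and 28 in Cy3 on the clone arrays and 56 in Cy5, over backgrounds of 17, 17, 17 and 46. No ratio was drawn from these values, and the promoter of Rel holds a kB site at -92.

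The other genes of the pathway were read in 4 lists, with the brightest probe for each gene. Of 71 measured genes 2 were lower and none was higher in R/R. At an unadjusted p under 0.05 by limma, 16 had a fitted ratio below 0 and 1 above it, where 8.38% of all genes tested were lower and 7.5% higher. The lists were chosen with earlier results of these data known, so these counts are not independent of the data. Over all genes tested in this way, 0.664% were called in either direction, 0.454% lower and 0.21% higher. Ltb, which encodes lymphotoxin beta, the membrane partner of lymphotoxin alpha and a ligand route into the non-canonical pathway, was the lowest of them. Its log2 ratios were -1.71, -1.64 and -1.92 in clones 1, 2 and 3 and -1.67 in the R/R pool, all close to each other. The fitted ratio was -1.71 ± 0.10 (limma adjusted p = 0.0075), or 3.28-fold higher in WT, and the call was lost with the scanner software's ratios at -1.74 (limma adjusted p = 0.0506). The promoter of Ltb also holds a kB site, in capitals in the 150 bases before its start, at chr17:35194357-35194506 on the plus strand, shown because it was the most strongly changed gene of the lists.
Ltb: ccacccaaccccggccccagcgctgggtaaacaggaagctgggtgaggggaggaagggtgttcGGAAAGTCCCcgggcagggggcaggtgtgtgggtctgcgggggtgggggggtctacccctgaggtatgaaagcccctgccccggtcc

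Among the 28 other transcribed targets, 19 were measured, 1 was lower and 18 did not pass. Their median fitted ratio was -0.25 beside -0.02 over all genes tested. At an unadjusted p under 0.05 by limma, 8 had a fitted ratio below 0 and 1 above it, where 8.38% of all genes were lower and 7.5% higher. Among the 8, Tnfrsf9 was above WT in clones 1, 2 and 3 (0.33, 0.49 and 0.24) and below it in the R/R pool alone (-0.85). Bcl2l1 stood at 0.05, -0.13 and -0.0035 in the clones and -0.49 in the pool. The fit weighs the pool as the clones' mean, while its SE rests on the clones, so this p does not measure a gap between clones and pool. Besides Ltb, the members with the smallest p were Lta, the lymphotoxin alpha gene, at -0.65 ± 0.14 (limma adjusted p = 0.140), and the pleckstrin gene Plek at -0.68 ± 0.15 (adjusted p = 0.141). Lta had log2 ratios of -0.38, -0.65 and -1.03 in clones 1, 2 and 3 and -0.61 in the R/R pool, and was below WT on every array. Ebi3, which encodes a subunit shared by cytokines of the IL-12 family, had no R/R channel well above background, and the WT level was at least 1.27-fold higher, without passing (limma adjusted p = 0.162). That bound compares normalised channels, without a balanced dye swap, and sets R/R on each array at the dimmest signal still well above background there, or at the measured signal where that is higher. The chemokine and cytokine genes Ccl3, Ccl4, Cxcl1, Cxcl2, Cxcl10 and Il6, together with Cd83, Ier3 and Vcam1, were not well above background on at least 3 arrays in either channel.

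Of the 21 receptors and adaptors 17 were measured, 1 was lower and 16 did not pass, with a median of -0.02. At an unadjusted p under 0.05 by limma, 4 were lower and none higher, where 8.38% of all genes were lower and 7.5% higher. The lower gene was Tnfrsf13c, which encodes the BAFF receptor of B cells. Its brighter probe had log2 ratios of -0.72, -0.81 and -1.01 in clones 1, 2 and 3 and -0.74 in the R/R pool, and a fitted ratio of -0.79 ± 0.10 (limma adjusted p = 0.0479). A second, dimmer probe gave 0.20, -0.23 and -0.11 in the clones and -0.22 in the pool, with a fitted ratio of -0.13 ± 0.11 (limma adjusted p = 0.621). The mean of the probes gave -0.46 (limma adjusted p = 0.140). The probes of Tnfrsf13c therefore disagreed in size, and the call rested on 1 of them. It was also lost without clone 1 (limma adjusted p = 0.116), without clone 2 (0.0608), with offset 16 (0.0593), with 1 probe per gene in the fit (0.0527), with both channels required above background (0.0527), with the scanner software's ratios (0.200) and with median centring (0.308). The Toll-like receptor genes Tlr2, Tlr9 and Tlr4 had the next smallest p, at -0.24 ± 0.09, -0.30 ± 0.12 and -0.32 ± 0.13, and none passed.

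All 20 genes of kinases and signalling complexes were measured and none passed by limma, with a median of -0.02. At an unadjusted p under 0.05, 2 were lower, near the 8.38% of all genes. These were Malt1 at -0.34 ± 0.09 (adjusted p = 0.173) and Bcl10 at -0.32 ± 0.11 (adjusted p = 0.252), which encode components of the complex that links antigen receptors to the IkB kinase. Tbk1, an IKK-related kinase, stood at 0.30 ± 0.15 (limma adjusted p = 0.411). The subunits of the IkB kinase itself, Chuk at 0.12 ± 0.10, Ikbkb at 0.04 ± 0.13 and Ikbkg at 0.08 ± 0.11, were named for their role after their values were seen, and none passed.

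**Figure D4:**
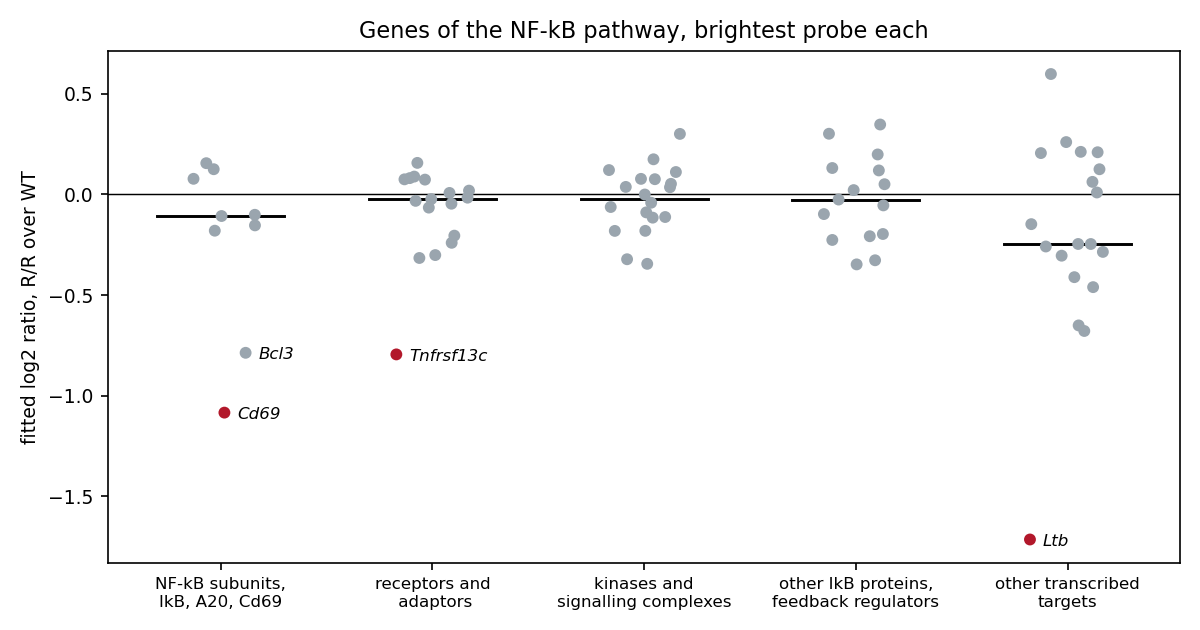
The vertical axis gives the fitted log2 ratio of R/R over WT for the brightest probe of each measured gene, by group, with the member genes at the left, horizontal bars at each group's median and red points for genes lower in R/R at an adjusted p under 0.05. The red points are Cd69 at -1.08, Tnfrsf13c at -0.79 and Ltb at -1.71. In the group of kinases and signalling complexes, 1 gene counted in the median is not drawn.

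Of the 16 other IkB proteins and feedback regulators 15 were measured, none passed by limma and 2 were lower at an unadjusted p under 0.05, where 8.38% of all genes were, with a median of -0.03. Those were Nfkbil1, an IkB-like gene, at -0.35 ± 0.09 (adjusted p = 0.168) and the ubiquitin ligase gene Itch at -0.33 ± 0.09 (adjusted p = 0.208). Tnip1, which encodes a partner of A20, stood at 0.35 ± 0.15 (limma adjusted p = 0.363), from -0.05 in clone 3 to 0.66 in clone 1, and its second probe gave 0.27 ± 0.19. Usp18 stood at 0.30 ± 0.13 (limma adjusted p = 0.350). None of the lists was tested as a set.

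The 5 genes whose 4 ratios lay nearest to those of Cd69 were found by the root mean square difference over the arrays, among 11676 other genes with a proper symbol. Of the 5, 3 were well above background in every channel, namely Bex6 at 0.17, Sesn2 at 0.17 and Chd2 at 0.19 on the log2 scale. Their fitted ratios were -1.17, -1.12 and -0.95 in that order, which follows from the choice. The others were Ryk, with 1 R/R channel well above background, and Robo3, with none, so their nearness to Cd69 was not measured. Robo3 was at least 1.95-fold higher in WT by the bound described for Ebi3.

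**Figure D5:**
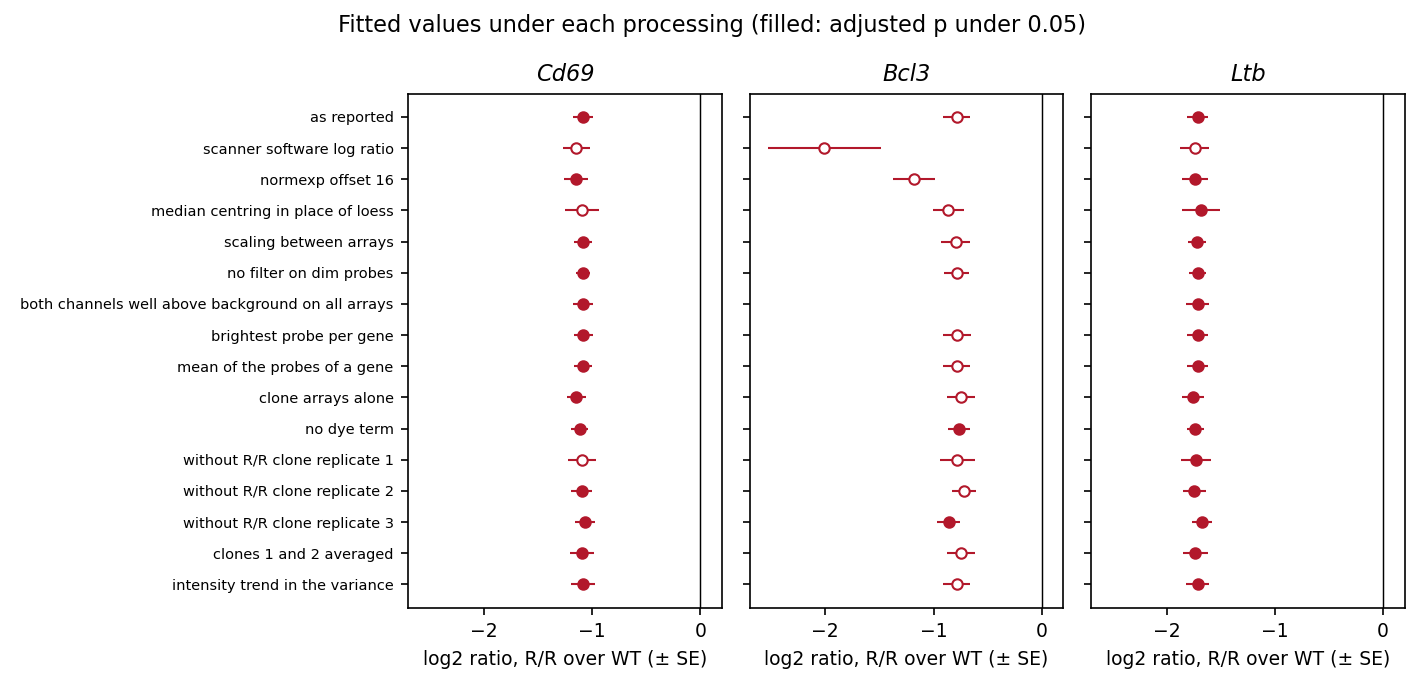
The horizontal axes give the fitted log2 ratio of R/R over WT with bars of ± 1 SE for Cd69, Bcl3 and Ltb, and each row is 1 way of processing, with filled points where the adjusted p was under 0.05. Cd69 stays between -1.15 and -1.06 while its call comes and goes, and Bcl3 moves between -2.01 and -0.72.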

How the data were processed

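RNA of the 4 arrays had been labelled at 100 ng each, per the labels. Per the file headers, Feature Extraction 11.5.1.1 gave uncorrected median intensity of each spot and its local background, and a processed intensity after background subtraction and dye normalisation. Its log10 ratio, again per the file headers, is processed Cy5 over processed Cy3. The authors also deposited log2 ratios of R/R to WT whose making is not stated, and these were used for counts alone. They were matched by position, which gave r of 0.989 to 0.997 and slopes of 0.97 to 1.01 against the ratios used here, and column medians of -0.0014 to 0.0040.

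With limma 3.58.1 in R 4.3.3, the median intensities had their background corrected by normexp (offset 50) and each array was normalised by loess, with control spots at weight 0. Outlier spots (210 to 265 per array) were left out, spots of a probe were averaged, and 11 probes missing on an array were dropped. Of 55681 probes 27656 matched 1 gene symbol. Probes well above background on at least 3 of 4 arrays in either genotype's channel were fitted with a genotype and a dye term. The clones' mean and the pool have equal weight, and the clones leave 2 residual degrees of freedom. P-values are two-sided with Benjamini-Hochberg adjustment over 26436 probes. They and the SE rest on each probe's spread between the clones, which limma moderated towards that of all probes tested. Channel intensities are after Aquantile normalisation. On simulated data the fit recovered 4.48%, 77.6% and 93.9% of probes changed 1.5-, 2- and 4-fold, with 5 false among 122 calls over 26436 probes. The simulated errors were independent between arrays, with no dye effect and no deviation of the WT pool shared by the arrays. These rates are therefore not the error rates of the calls reported here.

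The members and lists were chosen with earlier results of these data known. The rule for named genes took every member probe, the 4 genes of each list with the smallest p, every called gene, and the 5 genes nearest to Cd69, though not every gene it took is reported here. Alternatives were the scanner ratios, offset 16, median centring, scaling, other filters, other ways to join probes, a fit on the clone arrays only, a fit with no term for dye, a mean of clones 1 and 2, leaving out a clone, a variance trend over intensity and a threshold of 0.10. The deposited table was added after the data were seen.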

Additional observations from a re-analysis of the deposited data

How the results depend on the processing

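The member probes were refitted under each alternative, except the dimmer probes of Nfkb1 and Relb where a gene had 1 value. The fitted ratio of Cd69 was below 0 in 16 of 16 alternatives (-1.15 to -1.06; -1.10 to -1.06 with a clone left out), and limma adjusted p ran from 0.00064 to 0.135. Bcl3 was below 0 in 15 of 15, having no value where both channels had to be above background. Reversals were Nfkb1's dimmer probe (0.0074), Rela (-0.20) and Nfkbia (-0.037) on the clone arrays alone, and Rela (-0.063) without a dye term; none of these passed, and other probes kept their sign. As reported, 49 probes were higher and 106 lower over all probes, 1 member probe was lower and 2 list genes were lower. With the scanner ratios these counts were 8, 49, 0 and 0 (2 members and 9 list genes lower at an unadjusted p under 0.05 by limma). With median centring they were 3, 29, 0 and 1 (2 members at an unadjusted p under 0.05). With both channels well above background 31, 57 and 1 list gene were called. With the brightest probe 30 were higher and 1 list gene lower, with the mean of probes 29 and 66 probes and 1 list gene, and with offset 16 1 list gene. Without a dye term there were 631, 795, 2 and 8, and at the 0.10 threshold 130, 248 and 2 member probes. Leaving out a clone gave 16 (clone 1) to 117 (clone 3) higher, 59 (clone 1) to 229 (clone 3) lower, 0 (clone 1) to 2 (clone 3) member probes and 1 to 2 list genes. The deposited table gave 61 and 139, over 59305 rows and not the 26436 probes tested here, so these counts are not like for like. No paired analysis was possible because the labels number only the clones and the WT side is 1 pool. The causes were not tested. Signal over background limits Rel and Bcl3.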
